A study of Homo sapiens with 12 samples.

Results

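The unfolded protein response and endoplasmic reticulum (ER) chaperone genes described here are 34 genes, taken by symbol from a fixed list among the 27814 named genes of a read-count table of BT474 cells. BT474 is an established human breast cancer line that is hormone receptor-positive and HER2-amplified. All 34 symbols were found, and 33 passed the filter on low counts. DERL3 did not pass and is given by its level alone. The list was not drawn from measured values in its rule, but it was proposed with results of these data in view, so its counts are read beside the same counts over all genes tested.

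The 12 libraries formed 4 groups of 3. These were BT474 cells labelled BRD8 KO with 200 nM neratinib for 4 h, parental BT474 cells with 200 nM neratinib for 4 h, cells labelled BRD8 KO in DMSO, and parental BT474 cells in DMSO, the solvent control. BRD8 is a bromodomain protein of EP400-TIP60, a chromatin-modifying complex. Neratinib binds covalently to ErbB kinases such as HER2 and blocks them. The labels name the knockout without saying where the gene was edited or whether the cells were 1 clone or a pool, and they do not say whether replicates were separate cultures, so the p-values rest on a spread between libraries that may be technical. Levels are given in CPM, the TMM-scaled count per 1e6 reads. In DMSO, BRD8 mRNA stood at 67.4 ± 1.39 CPM in KO-labelled and 64.1 ± 0.706 CPM in parental cells (SD, n = 3 each). In neratinib it stood at 156 ± 2.44 CPM in KO-labelled and 236 ± 5.23 CPM in parental cells. These levels cannot decide whether BRD8 was lost, since counts per gene do not show edits in the sequence and BRD8 protein was not measured. The name KO-labelled used here follows the label alone.

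Library totals over named genes lay between 32471198 and 44726160 counts. All 10 markers of HER2-amplified luminal cells were above 1 CPM in every group, with summed levels of 16147 to 18942 CPM, of which ERBB2 made up 8177 to 9138 CPM as group means. Between genotypes the 10 moved both ways. By edgeR's quasi-likelihood test (adjusted p below 0.05), 4 were higher and 5 lower in KO-labelled neratinib cells. In DMSO 6 were higher and 4 lower. Over all genes tested 34.7% were higher and 36.9% lower in neratinib, and 36.0% higher and 35.6% lower in DMSO. GRB7 averaged 2943 CPM in KO-labelled and 2193 CPM in parental neratinib cells, and 627 CPM in KO-labelled and 424 CPM in parental DMSO cells. GATA3 averaged 171 CPM in KO-labelled and 389 CPM in parental neratinib cells, and 249.8 CPM in KO-labelled and 435 CPM in parental DMSO cells. FOXA1 averaged 362 CPM in KO-labelled and 609.9 CPM in parental neratinib cells, and 578 CPM in KO-labelled and 773 CPM in parental DMSO cells. Of 6 immune, 5 fibroblast and 4 endothelial markers, only CD68, COL1A1, VWF and, in KO-labelled DMSO cells, CDH5 reached 1 CPM, and CD3E, PTPRC, DCN, LUM, FAP, PECAM1 and KDR were at or near 0. The immune sum was 7.43 to 7.75 CPM in KO-labelled and 6.44 to 7.76 CPM in parental neratinib libraries, and 5.78 to 6.44 CPM in KO-labelled and 3.59 to 4.35 CPM in parental DMSO libraries. The fibroblast sum, nearly all COL1A1, was 112.4 to 116 CPM in KO-labelled and 89.1 to 92.5 CPM in parental neratinib libraries, and 79.7 to 84.4 CPM in KO-labelled and 69.7 to 75.8 CPM in parental DMSO libraries. The endothelial sum, nearly all VWF, was 36.8 to 41.0 CPM in KO-labelled neratinib and 14.4 to 15.3 CPM in parental neratinib libraries, and 33.9 to 34.8 CPM in KO-labelled DMSO and 12.1 to 12.2 CPM in parental DMSO libraries. The part of such differences in the results was not tested. The 13 mitochondrially encoded mRNAs held 3.82% to 4.02% of counts in KO-labelled neratinib and 3.26% to 3.83% in parental neratinib libraries, against 2.08% to 2.50% in KO-labelled DMSO and 2.11% to 2.42% in parental DMSO libraries. This share moved with neratinib, and its part in the neratinib results was not tested.

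The ER folds proteins bound for the membrane and for secretion. When unfolded proteins build up there, the sensors IRE1 (encoded by ERN1), ATF6 and PERK (encoded by EIF2AK3) start the unfolded protein response. IRE1 splices XBP1 mRNA into the form that encodes an active transcription factor, ATF6 is cut to release another, and PERK phosphorylates eIF2alpha, which slows translation and favours ATF4. XBP1 and ATF6 raise genes for chaperones, disulphide isomerases, translocation and ER-associated degradation (ERAD), in part through a promoter sequence called the ER stress response element (ERSE). Luminal breast cells carry much XBP1 mRNA and make many secreted and membrane proteins. The counts are per gene and do not separate spliced from unspliced XBP1 mRNA, and sensor activity, which is set at the protein level, was not measured.

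Promoter sequence is shown for 11 of the genes, those with an exact match to ERSE or to ERSE-II. RefSeq windows of GRCh38.p14 ran from 250 bases before to 50 bases after each annotated start. They were present for 30 of the 34 genes, those of PDIA3, DERL1, DERL3 and SEC24D being absent. The whole promoter set held 27305 genes and was not limited to those of the count table. Exact matches were searched on both strands. ERSE (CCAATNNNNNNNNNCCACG) was in 8 of the 30, HSPA5, HSP90B1, CALR, CANX, PDIA6, ERO1B, CRELD2 and XBP1, against 25 of the 27305 genes (0.0916%). ERSE-II (ATTGGNCCACG) was in HYOU1, SDF2L1 and HERPUD1, against 19 of all genes (0.0696%). These counts are over all genes of the promoter set and include the listed genes. Of 142 other ER and stress pathway genes with a window, 2 held ERSE and 0 held ERSE-II. The core of the UPR element bound by XBP1 (TGACGTGG) was in 1 of the 30, HYOU1, where it overlaps an ERSE-II match. This core was in 13 of the 142 other pathway genes and in 253 of all genes (0.927%). The C/EBP-ATF element (TTGCATCA) was in 1 of the 30, HERPUD1, in 3 of the 142 and in 295 of all genes (1.08%). A match is a description of letters and not a shown binding site. The sequences below are read 5′ to 3′ on the gene's strand, and capitals mark the matches.

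The first 4 stretches hold the 250 bases before the start of the Hsp70 chaperone gene, the Hsp90 chaperone gene with its pair of ERSE matches, the ERAD gene HERPUD1, and XBP1 itself. They lie at chr9:125241344-125241593 (HSPA5, minus strand), chr12:103930160-103930409 (HSP90B1, plus strand), chr16:56931892-56932141 (HERPUD1, plus strand) and chr22:28800570-28800819 (XBP1, minus strand).
HSPA5: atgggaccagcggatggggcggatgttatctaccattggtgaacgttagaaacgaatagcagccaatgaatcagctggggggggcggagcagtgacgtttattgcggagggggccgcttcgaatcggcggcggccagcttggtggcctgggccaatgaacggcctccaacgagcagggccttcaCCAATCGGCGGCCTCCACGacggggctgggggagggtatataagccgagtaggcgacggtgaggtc
HSP90B1: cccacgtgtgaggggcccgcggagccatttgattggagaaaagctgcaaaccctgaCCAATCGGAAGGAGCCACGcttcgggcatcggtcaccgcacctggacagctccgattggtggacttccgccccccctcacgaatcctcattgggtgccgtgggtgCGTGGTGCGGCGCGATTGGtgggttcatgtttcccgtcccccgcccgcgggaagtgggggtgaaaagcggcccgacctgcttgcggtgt
HERPUD1: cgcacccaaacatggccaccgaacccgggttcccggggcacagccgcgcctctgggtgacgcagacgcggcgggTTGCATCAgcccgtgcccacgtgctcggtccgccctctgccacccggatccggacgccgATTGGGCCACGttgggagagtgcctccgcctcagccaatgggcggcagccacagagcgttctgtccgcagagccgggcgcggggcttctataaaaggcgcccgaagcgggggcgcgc
XBP1: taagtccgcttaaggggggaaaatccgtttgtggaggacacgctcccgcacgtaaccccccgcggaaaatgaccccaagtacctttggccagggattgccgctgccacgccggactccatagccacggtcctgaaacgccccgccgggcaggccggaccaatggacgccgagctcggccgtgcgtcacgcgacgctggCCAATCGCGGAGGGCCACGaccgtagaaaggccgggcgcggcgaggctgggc

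The shorter stretches below frame the matches of 7 further genes. The spacing between the ends of each match was fixed by the letters searched for. They lie at chr19:12938369-12938417 (CALR, plus strand), chr5:179698763-179698811 (CANX, plus strand), chr2:10812838-10812886 (PDIA6, minus strand), chr1:236282168-236282208 (ERO1B, minus strand), chr22:49918539-49918587 (CRELD2, plus strand), chr11:119057259-119057408 (HYOU1, minus strand) and chr22:21642099-21642139 (SDF2L1, plus strand). In CALR, ERO1B, CRELD2, HYOU1 and SDF2L1 the ERSE and ERSE-II matches run on the other strand, so that they read from CGTGG to ATTGG or CCAAT. The UPR element core of HYOU1 lies on the gene's strand and is capitalised together with the ERSE-II match it overlaps.
CALR: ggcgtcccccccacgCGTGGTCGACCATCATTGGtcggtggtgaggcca
CANX: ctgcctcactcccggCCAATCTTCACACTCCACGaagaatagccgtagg
PDIA6: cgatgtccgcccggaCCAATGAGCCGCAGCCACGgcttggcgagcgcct
ERO1B: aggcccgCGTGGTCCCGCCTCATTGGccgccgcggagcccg
CRELD2: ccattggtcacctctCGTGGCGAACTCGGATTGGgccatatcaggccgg
HYOU1: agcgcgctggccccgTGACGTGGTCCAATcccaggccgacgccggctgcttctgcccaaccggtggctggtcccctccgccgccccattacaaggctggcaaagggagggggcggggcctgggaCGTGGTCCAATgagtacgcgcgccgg
SDF2L1: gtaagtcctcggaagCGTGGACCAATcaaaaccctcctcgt

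**Figure D1:**
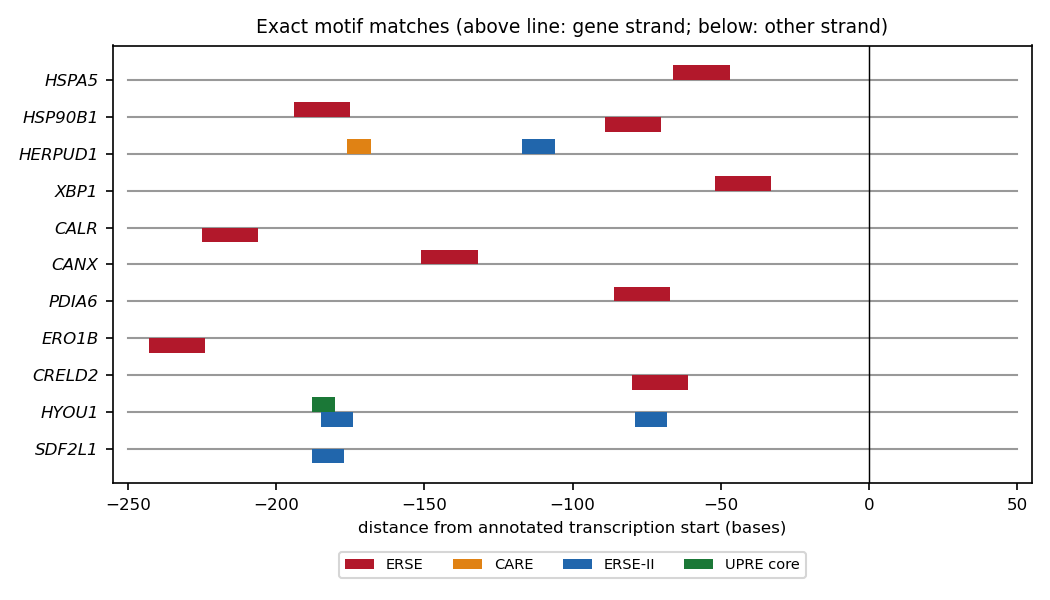
Positions of exact matches to ERSE, ERSE-II, the UPR element core and the C/EBP-ATF element in the promoters of 11 genes, by distance in bases from the annotated start. Bars above a line are on the gene's strand and bars below it on the other strand. HSP90B1 carried 2 ERSE matches and HYOU1 2 ERSE-II matches.

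KO-labelled cells carried less mRNA of most ER folding genes than parental cells, both in DMSO and in neratinib. In DMSO 24 of the 33 tested genes were called lower and 6 higher (edgeR's quasi-likelihood test, Benjamini-Hochberg adjusted p below 0.05 over 16208 genes), with a median log2 fold change of -0.21. Over all genes tested 35.6% were called lower and 36.0% higher, with a median of 0.0022. In neratinib 25 were called lower and 5 higher with a median of -0.32, where 36.9% of all genes were called lower and 34.7% higher with a median of -0.019. Past 1.5-fold, HSP90B1, HYOU1 and ERO1B were lower in DMSO and HERPUD1 higher, where 8.81% of all genes were lower and 14.3% higher at that size. In neratinib the lower genes past 1.5-fold were HSP90B1, HYOU1, CALR, PDIA3, PDIA6, ERO1B, CRELD2 and XBP1, 8 of 33 against 9.06% of all genes. No listed gene was higher at that size in neratinib, against 13.9% of all genes, and the largest rise was that of EIF2AK3 at 0.49. In bulk RNA, less mRNA in every cell and fewer cells with much of it cannot be told apart.

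The spread between these libraries was small, with a common biological coefficient of variation of 1.86%. A coefficient of 0.1 was then set for every gene. In neratinib 17 genes in place of 25 were called lower and 2 in place of 5 higher. In DMSO 16 in place of 24 were called lower and 1 in place of 6 higher. At that setting 3354 of the 16208 genes tested were called lower and 3596 higher in neratinib, and 3242 lower and 3732 higher in DMSO.

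**Figure D2:**
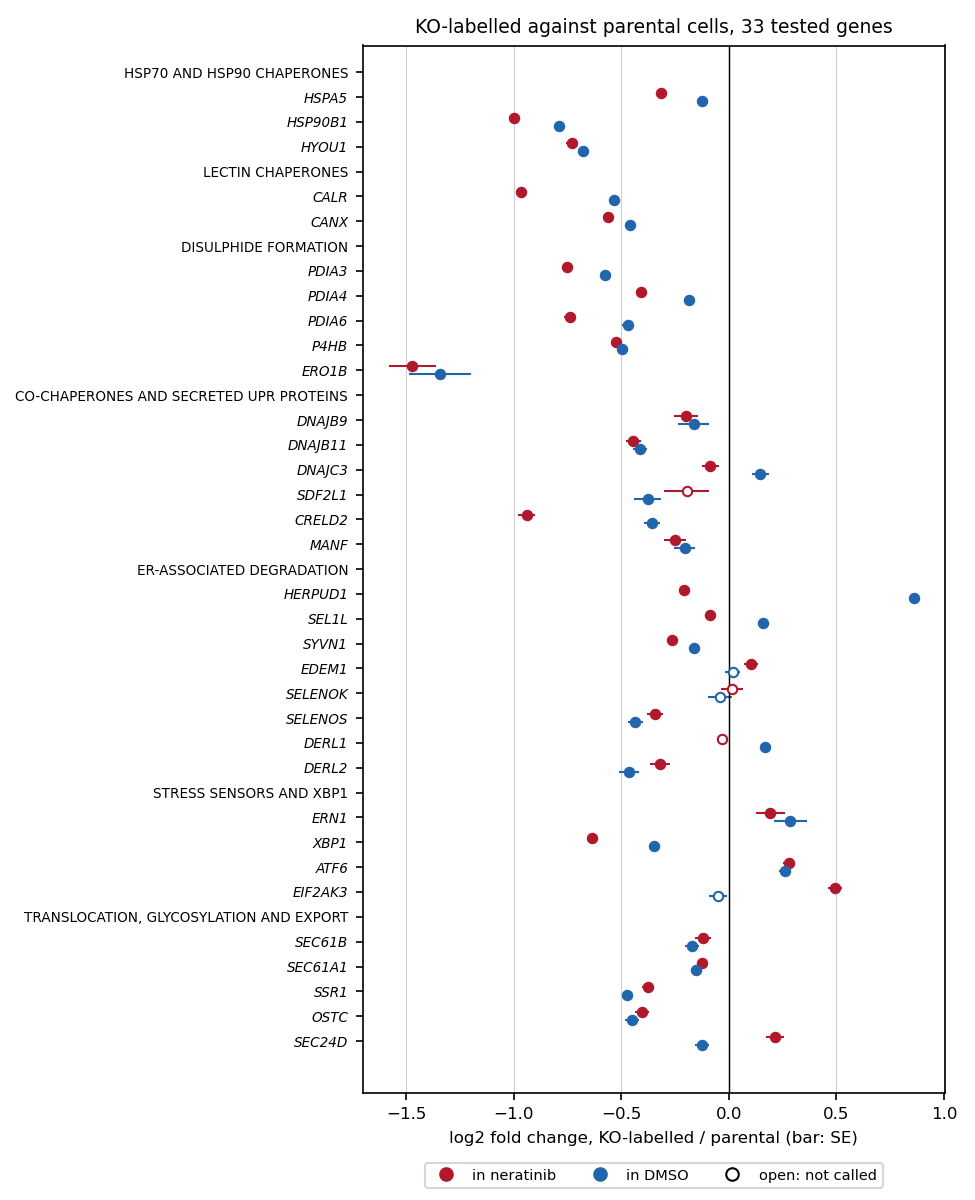
Log2 fold change of KO-labelled over parental cells for the 33 tested genes, grouped by role, in neratinib (red) and in DMSO (blue). Bars are SE and open points were not called. Chaperones and disulphide enzymes lie left of 0 in both treatments, HERPUD1 lies at 0.86 in DMSO and at -0.21 in neratinib, and ERN1 and ATF6 lie right of 0 in both.

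Neratinib raised some of these genes and lowered others in both genotypes. In KO-labelled cells 12 of 33 were called higher and 18 lower with a median log2 fold change of -0.090, where 38.9% of all genes were called higher and 38.4% lower with a median of 0.017. In parental cells 17 were called higher and 13 lower with a median of 0.098, where 41.8% of all genes were called higher and 38.9% lower with a median of 0.039. Past 1.5-fold, ERO1B, DNAJB9 and EIF2AK3 rose in KO-labelled cells while SDF2L1, CRELD2, XBP1 and SEC24D fell, where 18.9% of all genes rose and 14.2% fell by that much. In parental cells ERO1B, DNAJB9, HERPUD1 and EIF2AK3 rose past 1.5-fold and SDF2L1, XBP1, SSR1 and SEC24D fell, where 22.5% of all genes rose and 17.3% fell. All 4 of these shares over all genes are above those of the list. With library totals in place of TMM, 7 genes in place of 4 rose past 1.5-fold in parental cells, beside 4103 of all 16208 genes. With a coefficient of variation of 0.1, 11 in place of 17 were called higher and 7 in place of 13 lower in parental cells. In KO-labelled cells 11 in place of 18 were called lower. Over all genes 5391 were called higher and 4874 lower in parental cells at that setting, and 4516 lower in KO-labelled cells.

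**Figure D3:**
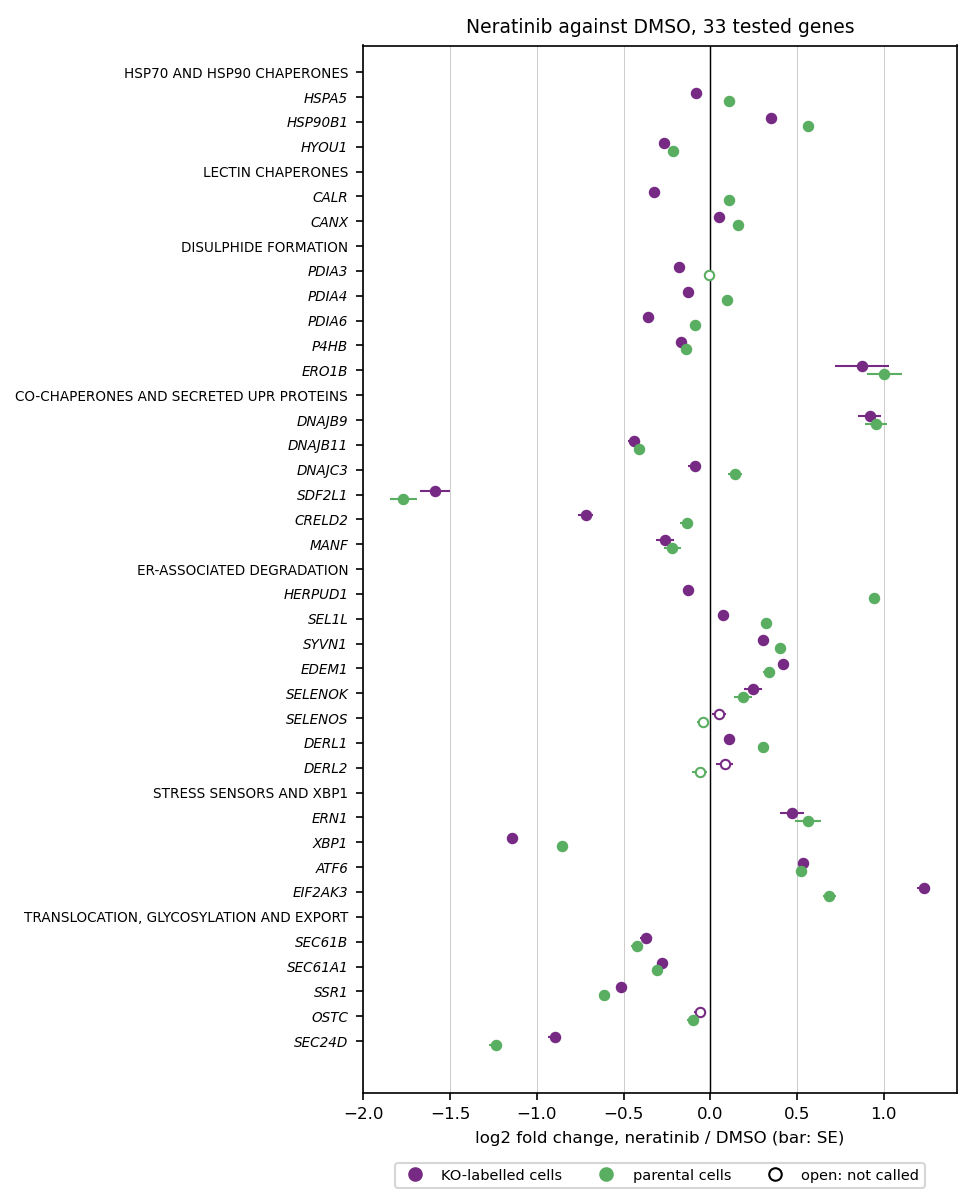
Log2 fold change of neratinib over DMSO for the 33 tested genes, grouped by role, in KO-labelled (purple) and parental (green) cells. Bars are SE and open points were not called. ERO1B and DNAJB9 lie near 0.9 to 1.0 in both, SDF2L1, XBP1 and SEC24D lie far left in both, and HERPUD1 lies at -0.13 in KO-labelled and 0.94 in parental cells.

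The response to neratinib was called different between the genotypes for 17 of the 33 genes, beside 7468 of the 16208 genes tested. The interaction, the log2 response in KO-labelled cells less the log2 response in parental cells, was called below 0 for 14 genes and above 0 for 3, with a median of -0.054. Over all genes 24.6% were called below and 21.5% above 0, with a median of -0.023. Only HERPUD1 differed past 1.5-fold, with an interaction below 0, as 5.13% of all genes did. No listed gene differed past 1.5-fold upwards, against 4.3% of all genes. With a coefficient of variation of 0.1, 2 genes (HERPUD1 and CRELD2) were called below 0 and 1 (EIF2AK3) above 0. Over all genes 743 were called below 0 and 693 above 0 at that setting. CRELD2, at -0.58, sat just under the 1.5-fold line and crossed it in 6 of 19 alternatives.

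The Hsp70 and Hsp90 chaperones of the ER lumen were lower in KO-labelled cells in both treatments. HSPA5 encodes BiP, the Hsp70 that binds nascent chains and holds the sensors inactive (chr9:125234853-125241330, minus strand). It measured 374, 372 and 372 CPM in the KO-labelled neratinib libraries and 465, 467 and 459 CPM in the parental neratinib libraries. In DMSO the KO-labelled libraries had 401, 391 and 393 CPM and the parental libraries 433, 428 and 430.1 CPM. No 2 groups overlapped, but the steps were small. KO-labelled over parental gave -0.32 ± 0.0180 (log2, SE; adjusted p = 7.61e-20) in neratinib and -0.12 ± 0.0180 (log2, SE; adjusted p = 7.3e-08) in DMSO. Neratinib over DMSO gave -0.085 ± 0.0182 (log2, SE; adjusted p = 5.5e-05) in KO-labelled and 0.11 ± 0.0179 (log2, SE; adjusted p = 5.55e-07) in parental cells. With library totals in place of TMM the fall in KO-labelled cells was -0.029 and was not called (adjusted p = 0.142).

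HSP90B1 encodes GRP94, the ER form of Hsp90, whose clients include integrins and Toll-like receptors (chr12:103930107-103953645, plus strand). Its libraries held 278, 269 and 274 CPM in KO-labelled neratinib cells, against 539.7, 558 and 543 CPM in parental neratinib cells. KO-labelled DMSO libraries held 214, 214 and 215 CPM, against 378, 366 and 367 CPM in parental DMSO. The KO-labelled cells in neratinib thus stayed below the parental cells in DMSO. The difference of KO-labelled from parental cells was -1.0005 ± 0.0191 (log2, SE; adjusted p = 2.54e-37) in neratinib and -0.79 ± 0.0197 (log2, SE; adjusted p = 4.48e-33) in DMSO. Neratinib raised HSP90B1 in both, by 0.35 (log2) in KO-labelled and 0.56 in parental cells, and the interaction was -0.21 ± 0.0274 (log2, SE; adjusted p = 1.47e-08). Of the 50-base windows along its transcript, 8.12% also matched another gene, such as the pseudogene HSP90B2P.

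HYOU1 encodes GRP170, which exchanges the nucleotide of BiP (chr11:119044189-119057202, minus strand). In neratinib it measured 70.6, 70.5 and 69.97 CPM in KO-labelled and 119, 116 and 115 CPM in parental libraries. In DMSO it measured 81.7, 85.3 and 87.2 CPM in KO-labelled and 136, 135 and 135 CPM in parental libraries. KO-labelled over parental cells gave -0.73 ± 0.0254 (log2, SE; adjusted p = 1.33e-27) in neratinib and -0.68 ± 0.0243 (log2, SE; adjusted p = 4.35e-27) in DMSO, and the interaction of -0.054 was not called (adjusted p = 0.22). Unlike HSP90B1, HYOU1 fell with neratinib, by 0.27 in KO-labelled and by 0.21 in parental cells on the log2 scale.

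**Figure D4:**
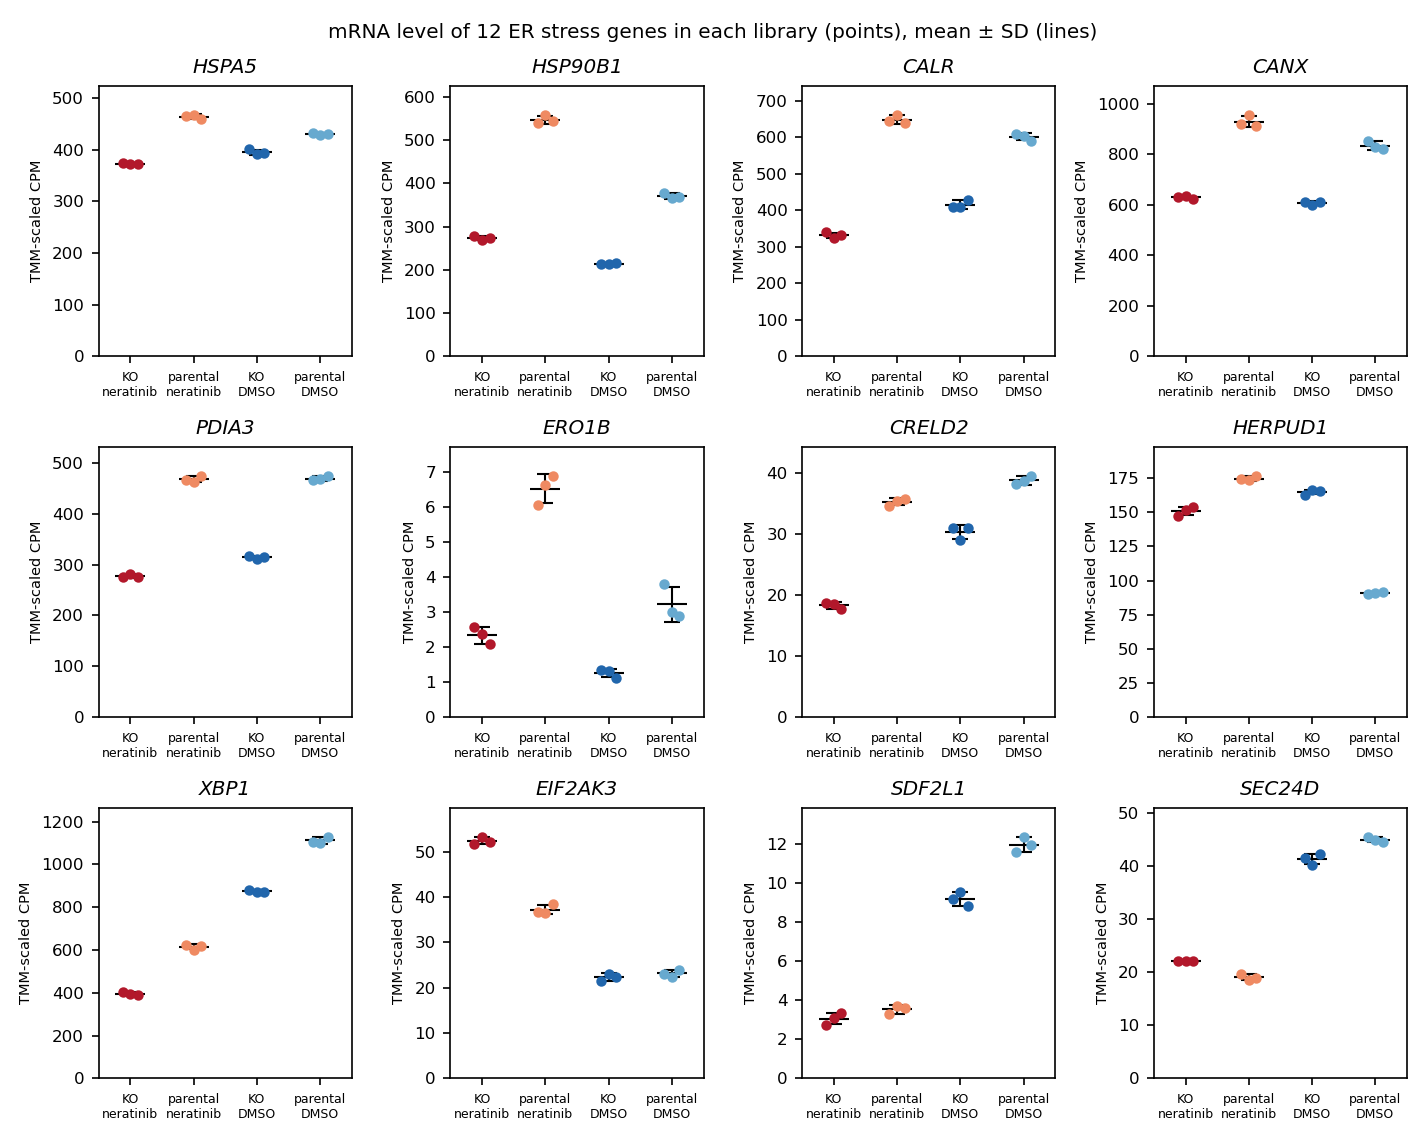
Level of 12 of the genes in each of the 12 libraries (points, TMM-scaled CPM) with the mean ± SD of each group (lines), KO-labelled left of parental and neratinib left of DMSO. HSP90B1, CALR, CANX, PDIA3 and ERO1B are lower in KO-labelled than in parental libraries in both treatments, XBP1, SDF2L1 and SEC24D are lower in neratinib than in DMSO, and HERPUD1 is lowest in parental DMSO.

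The lectin chaperones were also lower in KO-labelled cells. CALR encodes calreticulin, the soluble lectin that holds monoglucosylated glycoproteins and binds calcium (chr19:12938578-12944489, plus strand). KO-labelled neratinib libraries held 339, 325 and 331 CPM, against 645, 661 and 638 CPM in parental neratinib libraries. KO-labelled DMSO libraries held 409, 408 and 428 CPM, against 609, 604 and 590.2 CPM in parental DMSO libraries. CALR was lowest in KO-labelled neratinib and highest in parental neratinib libraries. The difference from parental cells was -0.97 ± 0.0208 (log2, SE; adjusted p = 1.81e-35) in neratinib and -0.53 ± 0.0205 (log2, SE; adjusted p = 4.66e-26) in DMSO. Neratinib gave -0.32 in KO-labelled and 0.11 in parental cells on the log2 scale, and the interaction was -0.43 ± 0.0291 (log2, SE; adjusted p = 1.71e-16). It was not called at a coefficient of variation of 0.1 (adjusted p = 0.0832).

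CANX encodes calnexin, the membrane-bound partner of calreticulin. It averaged 629 ± 7.64 CPM in KO-labelled neratinib, 929.6 ± 22.9 CPM in parental neratinib, 607 ± 7.97 CPM in KO-labelled DMSO and 833 ± 18.00 CPM in parental DMSO libraries (SD, n = 3 each). The KO-labelled to parental difference was -0.56 in neratinib and -0.46 in DMSO (log2). Neratinib raised CANX by 0.053 in KO-labelled and by 0.16 in parental cells. The rise in KO-labelled cells was not called in 5 of 20 alternatives. Among them were fits without replicate 2 or 3 of the KO-labelled DMSO cells or replicate 2 of the KO-labelled neratinib cells (adjusted p = 0.0796 to 0.123).

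All 5 genes of disulphide formation were called lower in KO-labelled cells in both treatments. Over all genes 36.9% were called lower in neratinib and 35.6% in DMSO. PDIA3 encodes ERp57, the isomerase that works with calreticulin and calnexin (chr15:43746392-43773279, plus strand). It measured 275, 281 and 275 CPM in KO-labelled neratinib and 466, 462 and 474 CPM in parental neratinib libraries. In DMSO it measured 317, 312 and 315 CPM in KO-labelled and 466, 467 and 474 CPM in parental libraries. Each KO-labelled library was below each parental library, and the parental libraries of the 2 treatments overlapped. The difference from parental cells was -0.75 ± 0.0185 (log2, SE; adjusted p = 2.69e-33) in neratinib and -0.58 ± 0.0184 (log2, SE; adjusted p = 5.14e-29) in DMSO. Of its 50-base windows 36.5% also matched ELL3 on the opposite strand or the pseudogene PDIA3P1, so its level is uncertain.

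PDIA6 encodes the isomerase P5 (chr2:10783391-10837977, minus strand). In neratinib it measured 68.9, 71.6 and 71.3 CPM in KO-labelled and 116, 120.4 and 118 CPM in parental libraries. In DMSO it measured 91.2, 92.4 and 87.7 CPM in KO-labelled and 125, 127 and 125 CPM in parental libraries. KO-labelled neratinib libraries were the lowest. The difference from parental cells was -0.74 ± 0.0257 (log2, SE; adjusted p = 1.2e-27) in neratinib and -0.47 ± 0.0246 (log2, SE; adjusted p = 3.55e-21) in DMSO. Of its exonic bases, 25.2% overlap ATP6V1C2 on the opposite strand, and the libraries do not mark strand.

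ERO1B encodes an oxidase that recharges the isomerases with disulphides (chr1:236215555-236281985, minus strand). It had the largest fold change among the 33 genes in both comparisons of KO-labelled with parental cells. KO-labelled neratinib libraries held 2.57, 2.36 and 2.10 CPM, against 6.07, 6.62 and 6.88 CPM in parental neratinib libraries. KO-labelled DMSO libraries held 1.34, 1.32 and 1.13 CPM, against 3.80, 3.01 and 2.88 CPM in parental DMSO libraries. The groups of each comparison did not overlap. KO-labelled over parental gave -1.47 ± 0.108 (log2, SE; adjusted p = 3.86e-16) in neratinib and -1.34 ± 0.143 (log2, SE; adjusted p = 2.89e-11) in DMSO. Neratinib over DMSO gave 0.88 ± 0.155 (log2, SE; adjusted p = 2.41e-06) in KO-labelled and 1.0040 ± 0.0997 (log2, SE; adjusted p = 2.44e-12) in parental cells.

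The remaining isomerases, P4HB (protein disulphide isomerase itself, also a subunit of collagen prolyl hydroxylase) and PDIA4 (ERp72), were lower too. P4HB averaged 647 ± 7.24 CPM in KO-labelled neratinib, 932 ± 15.3 CPM in parental neratinib, 727 ± 9.26 CPM in KO-labelled DMSO and 1026 ± 15.7 CPM in parental DMSO libraries. Its KO-labelled to parental difference was -0.53 in neratinib and -0.50 in DMSO (log2). PDIA4 averaged 163 ± 2.02 CPM in KO-labelled neratinib, 217 ± 1.08 CPM in parental neratinib, 178 ± 1.73 CPM in KO-labelled DMSO and 202 ± 3.36 CPM in parental DMSO libraries. Its difference was -0.41 in neratinib and -0.18 in DMSO, the latter not being called at a coefficient of variation of 0.1. In KO-labelled cells neratinib lowered the 4 isomerases, by 0.13 to 0.36 (log2), while in parental cells PDIA4 rose by 0.10, P4HB and PDIA6 fell, and PDIA3 stood at -0.0047 (adjusted p = 0.814). With library totals in place of TMM the PDIA3 value in parental cells was 0.074 and was called, while that of PDIA6 was -0.0089 and was not (adjusted p = 0.744).

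Among the co-chaperones and secreted proteins, DNAJB9 and SDF2L1 moved in opposite directions in neratinib. DNAJB9 encodes ERdj4, a J-domain partner of BiP that is induced by spliced XBP1 and assists ERAD (chr7:108569568-108574850, plus strand). In KO-labelled cells it measured 13.7, 15.3 and 15.1 CPM in neratinib and 8.34, 7.94 and 6.93 CPM in DMSO libraries. In parental cells it measured 17.1, 17.3 and 16.3 CPM in neratinib and 9.13, 8.72 and 8.29 CPM in DMSO libraries. Neratinib and DMSO libraries did not overlap in either genotype. The response was 0.92 ± 0.0657 (log2, SE; adjusted p = 9.01e-17) in KO-labelled and 0.95 ± 0.0622 (log2, SE; adjusted p = 3.34e-18) in parental cells. KO-labelled against parental cells in DMSO gave -0.16 ± 0.0727 (log2, SE; adjusted p = 0.0411), with overlapping libraries. The call was lost in 9 of 20 alternatives, among them DESeq2 (adjusted p = 0.0666). Also among them were fits without replicate 1 or 2 of the parental or replicate 2 or 3 of the KO-labelled DMSO cells (adjusted p = 0.0519 to 0.226).

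SDF2L1 encodes a partner of the J-domain protein ERdj3 (chr22:21642261-21644298, plus strand). KO-labelled libraries held 2.75, 3.10 and 3.33 CPM in neratinib and 9.20, 9.55 and 8.83 CPM in DMSO. Parental libraries held 3.27, 3.72 and 3.61 CPM in neratinib and 11.6, 12.4 and 11.96 CPM in DMSO. This was the largest neratinib response among the 33 genes in both genotypes. It amounted to -1.59 ± 0.0859 (log2, SE; adjusted p = 5.77e-21) in KO-labelled and -1.77 ± 0.0782 (log2, SE; adjusted p = 2.75e-24) in parental cells, and the interaction of 0.18 was not called (adjusted p = 0.24). In DMSO the KO-labelled libraries were below the parental ones, at -0.38 ± 0.0640 (log2, SE; adjusted p = 1.36e-06), while in neratinib they overlapped, at -0.20 ± 0.106 (log2, SE; adjusted p = 0.0942).

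CRELD2 encodes a secreted, calcium-binding protein that is released upon ER stress (chr22:49918167-49927540, plus strand). KO-labelled neratinib libraries held 18.8, 18.6 and 17.7 CPM, against 34.7, 35.5 and 35.9 CPM in parental neratinib. KO-labelled DMSO libraries held 31.00, 29.04 and 31.00 CPM, against 38.2, 38.7 and 39.6 CPM in parental DMSO. The KO-labelled neratinib libraries lay far below the other 3 groups. The difference from parental cells was -0.94 ± 0.0411 (log2, SE; adjusted p = 5.74e-24) in neratinib and -0.36 ± 0.0367 (log2, SE; adjusted p = 9.6e-12) in DMSO. Neratinib gave -0.72 in KO-labelled and -0.14 in parental cells (log2), the parental fall not being called with library totals in place of TMM (adjusted p = 0.143). The interaction was -0.58 ± 0.0555 (log2, SE; adjusted p = 6.37e-12).

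DNAJB11 (ERdj3), MANF (a secreted partner of BiP) and DNAJC3 (p58IPK, an inhibitor of PERK) complete the group. DNAJB11 was lower by 0.44 (log2) in KO-labelled than in parental cells in neratinib and by 0.41 in DMSO, and was lowered by neratinib by 0.44 in KO-labelled and by 0.41 in parental cells. Of its 50-base windows 31.3% matched other genes, TBCCD1 among them. MANF averaged 16.7 ± 0.323 CPM in KO-labelled neratinib, 19.96 ± 0.695 CPM in parental neratinib, 20.2 ± 1.11 CPM in KO-labelled DMSO and 23.2 ± 1.23 CPM in parental DMSO libraries, with 4 called differences between -0.26 and -0.21. DNAJC3 was higher in KO-labelled cells in DMSO (0.15 ± 0.0396 (log2, SE; adjusted p = 0.00118)) and lower in neratinib (-0.086 ± 0.0395 (log2, SE; adjusted p = 0.0488)). The call in neratinib was lost in 12 of 20 alternatives. Among them were DESeq2 (adjusted p = 0.179) and a coefficient of variation of 0.1 (adjusted p = 0.606). Also among them were fits without 1 library (adjusted p = 0.0522 to 0.248). These lacked replicate 1 or 3 of either neratinib group, replicate 3 of the parental or replicate 1 of the KO-labelled DMSO cells.

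Of the 8 tested ERAD genes, 1 was called higher and 5 lower in KO-labelled cells in neratinib, and 3 higher and 3 lower in DMSO. Over all genes 34.7% were called higher and 36.9% lower in neratinib, and 36.0% higher and 35.6% lower in DMSO. In neratinib EDEM1 was called higher, and HERPUD1, SEL1L, SYVN1, SELENOS and DERL2 lower. In DMSO HERPUD1, SEL1L and DERL1 were called higher, and SYVN1, SELENOS and DERL2 lower. Neratinib raised SEL1L, SYVN1, EDEM1, SELENOK and DERL1 in both genotypes, and HERPUD1 rose in parental and fell in KO-labelled cells.

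HERPUD1 encodes a short-lived membrane protein that joins the parts of the ERAD ubiquitin ligase complex (chr16:56932048-56944863, plus strand). KO-labelled neratinib libraries held 148, 152 and 154 CPM, against 174, 173 and 177 CPM in parental neratinib libraries. KO-labelled DMSO libraries held 163, 166 and 165 CPM, against 89.9, 91.01 and 91.7 CPM in parental DMSO libraries. The parental DMSO libraries stood apart, and the other 3 groups lay between 148 and 177 CPM without overlapping. KO-labelled over parental cells gave -0.21 ± 0.0209 (log2, SE; adjusted p = 4.23e-12) in neratinib and 0.86 ± 0.0222 (log2, SE; adjusted p = 1.71e-32) in DMSO. Neratinib gave -0.13 ± 0.0210 (log2, SE; adjusted p = 7.87e-07) in KO-labelled and 0.94 ± 0.0221 (log2, SE; adjusted p = 1.01e-34) in parental cells. The interaction, -1.07 ± 0.0305 (log2, SE; adjusted p = 2.58e-29), was the largest of the 33 genes, and it lay between -1.09 and -1.04 in all 19 alternatives run.

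SEL1L (the adaptor of the ligase), SYVN1 (HRD1, the ligase itself) and EDEM1 (which marks glycoproteins by trimming mannose) followed neratinib. SEL1L averaged 345 ± 5.91 CPM in KO-labelled neratinib, 367 ± 1.84 CPM in parental neratinib, 328 ± 5.17 CPM in KO-labelled DMSO and 294 ± 4.39 CPM in parental DMSO libraries, with an interaction of -0.24. SYVN1 rose in neratinib by 0.30 in KO-labelled and by 0.40 in parental cells, and EDEM1 by 0.42 in KO-labelled and by 0.34 in parental cells (log2). The interaction of EDEM1 was 0.084 ± 0.0468 (log2, SE; adjusted p = 0.141) and was not called.

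The derlins are part of the channel through which substrates leave, and the selenoproteins SELENOK and SELENOS bind them. DERL1 was higher in KO-labelled than in parental cells in DMSO by 0.17 (log2), while DERL2 was lower, by 0.46. In neratinib DERL1 stood at -0.032 (adjusted p = 0.199) and DERL2 was lower by 0.32. SELENOS was lower in KO-labelled cells by 0.34 in neratinib and by 0.43 in DMSO, and SELENOK stood at 0.014 in neratinib (adjusted p = 0.818) and -0.043 in DMSO (adjusted p = 0.502). DERL3 averaged 0.0437 CPM in KO-labelled neratinib, 0.123 CPM in parental neratinib, 0.00845 CPM in KO-labelled DMSO and 0.113 CPM in parental DMSO libraries. Since 77% of its exonic bases overlap SMARCB1 on the opposite strand, even these few counts may not be its own.

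Among the sensors, ERN1 and ATF6 were higher in KO-labelled cells and in neratinib, while XBP1, the mRNA that IRE1 splices, was lower in both. ERN1 (chr17:64039142-64130819, minus strand) measured 10.4, 10.6 and 12.3 CPM in KO-labelled neratinib and 9.77, 10.1 and 9.35 CPM in parental neratinib libraries. In DMSO it measured 8.09, 8.03 and 7.91 CPM in KO-labelled and 6.62, 5.99 and 7.10 CPM in parental libraries. Every neratinib library was above every DMSO library. The response was 0.47 ± 0.0705 (log2, SE; adjusted p = 9.19e-08) in KO-labelled and 0.56 ± 0.0749 (log2, SE; adjusted p = 5.41e-09) in parental cells. The KO-labelled to parental difference was 0.19 ± 0.0676 (log2, SE; adjusted p = 0.0107) in neratinib and 0.29 ± 0.0781 (log2, SE; adjusted p = 0.00123) in DMSO. In neratinib it rested on replicate 3 of the KO-labelled cells, without which it was 0.11 (adjusted p = 0.155), and it was not called by DESeq2 (adjusted p = 0.0524).

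XBP1 (chr22:28794555-28800597, minus strand) was lower in KO-labelled than in parental cells and lower in neratinib than in DMSO. KO-labelled neratinib libraries held 402, 395 and 391 CPM, against 623, 602 and 619 CPM in parental neratinib libraries. KO-labelled DMSO libraries held 878, 869 and 873 CPM, against 1105, 1102 and 1128 CPM in parental DMSO libraries. No 2 groups overlapped. Neratinib gave -1.14 ± 0.0191 (log2, SE; adjusted p = 3.8e-40) in KO-labelled and -0.85 ± 0.0186 (log2, SE; adjusted p = 6.5e-36) in parental cells. The KO-labelled to parental difference was -0.63 ± 0.0191 (log2, SE; adjusted p = 5.62e-30) in neratinib and -0.35 ± 0.0184 (log2, SE; adjusted p = 4.93e-21) in DMSO, and the interaction was -0.29 ± 0.0265 (log2, SE; adjusted p = 2.55e-12). The interaction was not called at a coefficient of variation of 0.1 (adjusted p = 0.335).

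ATF6 (chr1:161766294-161964070, plus strand) measured 147, 147 and 143 CPM in KO-labelled neratinib and 116, 124 and 122 CPM in parental neratinib libraries. In DMSO it measured 103, 101 and 97.5 CPM in KO-labelled and 84.7, 82.1 and 84.6 CPM in parental libraries. All 4 groups were apart from each other. Neratinib raised it by 0.54 (log2) in KO-labelled and 0.52 in parental cells, and the interaction was 0.017 (adjusted p = 0.743). The KO-labelled to parental difference was 0.28 ± 0.0245 (log2, SE; adjusted p = 1.25e-13) in neratinib and 0.26 ± 0.0266 (log2, SE; adjusted p = 8.21e-12) in DMSO.

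EIF2AK3, the gene of PERK (chr2:88556741-88627576, minus strand), was higher in KO-labelled than in parental cells in neratinib, and its response differed between them. KO-labelled libraries held 51.8, 53.3 and 52.2 CPM in neratinib and 21.5, 23.1 and 22.4 CPM in DMSO. Parental libraries held 36.7, 36.6 and 38.5 CPM in neratinib and 23.1, 22.4 and 23.98 CPM in DMSO. The DMSO libraries of the genotypes overlapped, at -0.050 ± 0.0426 (log2, SE; adjusted p = 0.298), and the neratinib libraries did not, at 0.49 ± 0.0338 (log2, SE; adjusted p = 3.83e-17). Neratinib gave 1.23 ± 0.0370 (log2, SE; adjusted p = 2e-30) in KO-labelled and 0.69 ± 0.0387 (log2, SE; adjusted p = 2.04e-20) in parental cells, with an interaction of 0.54 ± 0.0544 (log2, SE; adjusted p = 2.31e-11). Of its 50-base windows 16% matched an antisense gene.

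The genes of translocation, glycosylation and export were lower in neratinib, most of them in both genotypes. SEC61A1 and SEC61B encode the channel through which nascent chains enter, and SSR1 a subunit of the complex beside it. SEC61A1 averaged 289.6 ± 1.93 CPM in KO-labelled neratinib, 316 ± 2.83 CPM in parental neratinib, 351 ± 2.28 CPM in KO-labelled DMSO and 391 ± 0.334 CPM in parental DMSO libraries. SEC61B fell in neratinib by 0.37 in KO-labelled and by 0.42 in parental cells, and SSR1 by 0.52 in KO-labelled and by 0.61 in parental cells (log2). OSTC, a subunit of the oligosaccharyltransferase, stood at -0.057 in KO-labelled cells (adjusted p = 0.135) and fell by 0.10 in parental cells, a call lost with library totals in place of TMM (-0.022, adjusted p = 0.535). KO-labelled cells were below parental cells for all 4, by 0.12 to 0.40 in neratinib and by 0.15 to 0.47 in DMSO (log2). Over all genes 36.9% were called lower in neratinib and 35.6% in DMSO. At a coefficient of variation of 0.1 the differences of SEC61A1 and SEC61B were not called in either treatment.

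SEC24D selects cargo for COPII vesicles, which leave the ER (chr4:118722823-118838683, minus strand). KO-labelled libraries held 22.2, 22.2 and 22.2 CPM in neratinib and 41.6, 40.3 and 42.3 CPM in DMSO. Parental libraries held 19.7, 18.5 and 18.96 CPM in neratinib and 45.5, 44.9 and 44.6 CPM in DMSO. The fall in neratinib was large beside the spread, at -0.90 ± 0.0374 (log2, SE; adjusted p = 4.49e-25) in KO-labelled and -1.24 ± 0.0376 (log2, SE; adjusted p = 2.17e-30) in parental cells. KO-labelled cells were above parental cells in neratinib (0.22 ± 0.0429 (log2, SE; adjusted p = 2.21e-05)) and below them in DMSO (-0.12 ± 0.0329 (log2, SE; adjusted p = 0.00086)), with an interaction of 0.34 ± 0.0541 (log2, SE; adjusted p = 1.14e-06). At a coefficient of variation of 0.1 neither of these differences nor the interaction was called, with adjusted p of 0.151, 0.434 and 0.244.

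**Figure D5:**
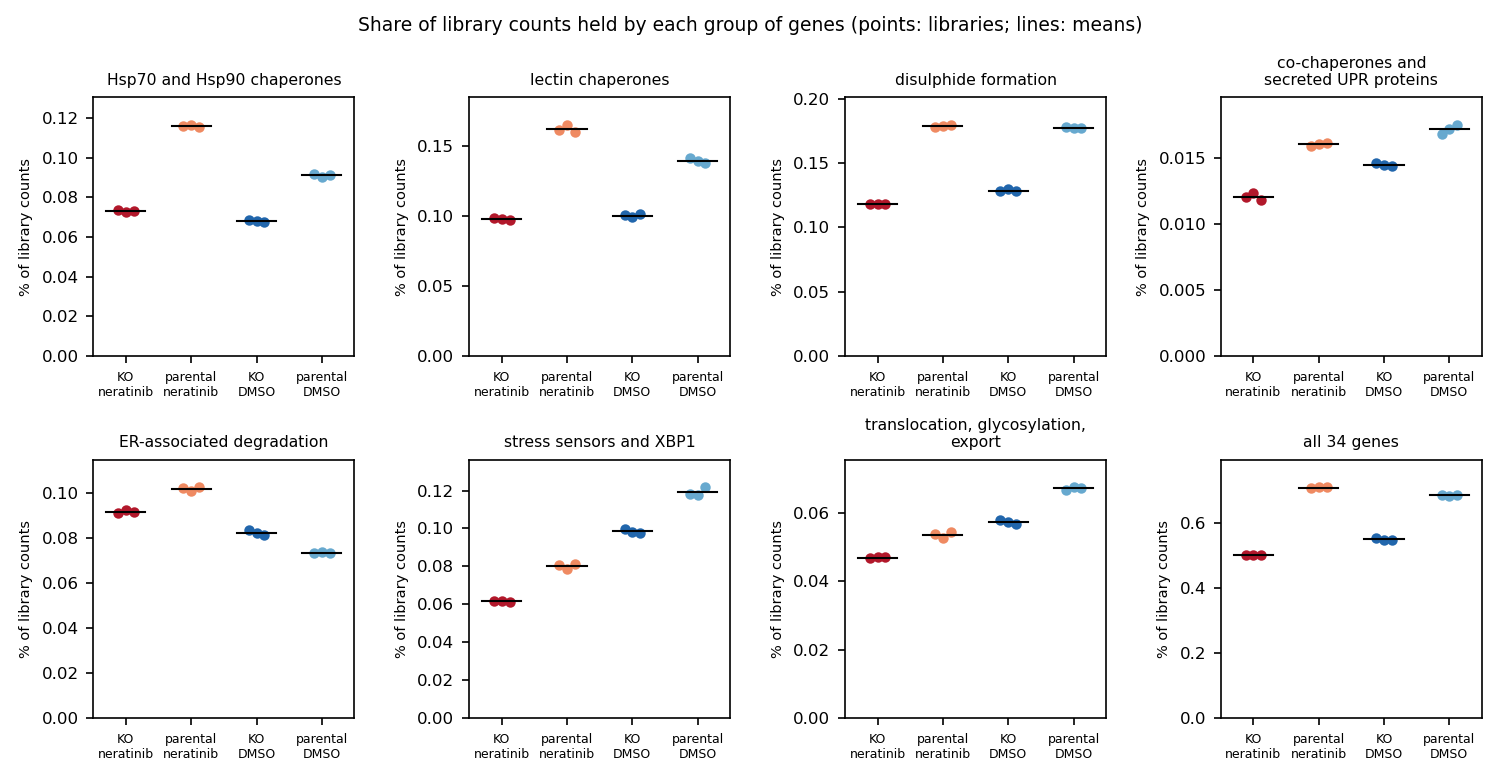
Percentage of each library's counts held by the genes of each role and by all 34 genes together (points are libraries, lines are group means). All 34 genes held 0.500% to 0.503% in KO-labelled neratinib, 0.708% to 0.709% in parental neratinib, 0.547% to 0.553% in KO-labelled DMSO and 0.683% to 0.687% in parental DMSO libraries.

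As a share of all counts, given without a test, the 34 genes held 0.502% in KO-labelled and 0.709% in parental neratinib libraries, and 0.550% in KO-labelled DMSO and 0.685% in parental DMSO libraries. The lectin chaperones held 0.0979% in KO-labelled and 0.162% in parental cells in neratinib, against 0.1002% in KO-labelled and 0.140% in parental cells in DMSO. The ERAD genes held more in neratinib than in DMSO in both genotypes, at 0.0919% in neratinib and 0.0825% in DMSO for KO-labelled cells and at 0.102% in neratinib and 0.0736% in DMSO for parental cells. The sensors with XBP1 held less, at 0.0617% in neratinib and 0.0985% in DMSO for KO-labelled and 0.0803% in neratinib and 0.119% in DMSO for parental cells, most of it XBP1.

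Per kilobase of exon (GENCODE 29), which allows genes to be compared, XBP1 had the highest level of the 34 in KO-labelled neratinib (131 CPM per kb), KO-labelled DMSO (288 CPM per kb) and parental DMSO cells (367 CPM per kb). In parental neratinib cells CALR stood first at 239 CPM per kb, before XBP1 at 203 CPM per kb. P4HB and CANX were among the 5 highest in every group. ERN1 and ERO1B stood at or below 1.22 CPM per kb in every group, and only DERL3 was lower. HERPUD1 was at 29.3 CPM per kb in KO-labelled neratinib, 33.9 in parental neratinib, 31.96 in KO-labelled DMSO and 17.6 in parental DMSO cells.

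The 11 genes with an ERSE or ERSE-II match in the promoters shown above were set beside the 19 with a window and no match, as a description with no test. In KO-labelled against parental cells the median log2 fold change was -0.73 with a match and -0.20 without in neratinib, and -0.46 with and -0.16 without in DMSO. Of those with a match 10 of 11 were called lower in each treatment, HERPUD1 being higher in DMSO and SDF2L1 not called in neratinib. Of those without, 14 of 19 were called lower in neratinib and 12 of 19 in DMSO. Over all genes the share called lower was 36.9% in neratinib and 35.6% in DMSO. The median neratinib response was -0.27 with and 0.050 without a match in KO-labelled cells, and 0.11 with and 0.098 without in parental cells. Among the matched genes, neratinib responses ran from -1.59 for SDF2L1 to 0.88 for ERO1B in KO-labelled cells.

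A wider set of 161 genes of ER protein handling and the stress pathways, of which 160 were tested, was described in the same way. In KO-labelled against parental cells 106 were called lower and 27 higher in neratinib, and 99 lower and 39 higher in DMSO. Over all genes 36.9% were called lower and 34.7% higher in neratinib, and 35.6% lower and 36.0% higher in DMSO. Among the translocon and signal peptidase genes 17 of 20 were lower in neratinib and 18 of 20 in DMSO and 0 were called higher in either, with SRPRA at -0.90 in neratinib and SEC61A2 at -0.85 in DMSO (log2). Of the oligosaccharyltransferase and glycan genes 17 of 20 were lower and 1 higher in neratinib and 16 lower and 2 higher in DMSO, with RPN2 at -1.19 in neratinib and STT3A at -1.23 in DMSO. COPII and cargo receptor genes were lower for 17 of 24 and higher for 3 in neratinib, and lower for 18 and higher for 2 in DMSO, with KDELR3 at -1.04 in neratinib and -1.14 in DMSO. Further chaperone partners were lower for 13 of 18 and higher for 2 in neratinib, and lower for 14 and higher for 1 in DMSO, with CLGN at -1.52 in neratinib and -1.09 in DMSO. Other isomerases were lower for 10 of 20 and higher for 3 in neratinib, and lower for 12 and higher for 6 in DMSO, 2 of these past 1.5-fold, with FKBP11 at -1.14 in neratinib and -1.47 in DMSO.

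Other ERAD genes were split, with 5 of 20 higher and 9 lower in neratinib and 7 higher and 9 lower in DMSO. ERLEC1 stood at -0.48 in neratinib and UBE2J1 at 0.60 in DMSO. Of the UPR factors and proteases 7 of 20 were higher and 12 lower in neratinib, and 10 higher and 7 lower in DMSO, with TXNIP at 1.52 in neratinib and RTCA at -0.53 in DMSO. In neratinib against DMSO the wider set was called higher for 44 and lower for 95 of 160 genes in KO-labelled cells, and higher for 50 and lower for 89 in parental cells. Over all genes 38.9% were called higher and 38.4% lower in KO-labelled cells, and 41.8% higher and 38.9% lower in parental cells. The largest response of each list was that of VCP (-0.83), PDIA2 (1.14), CDNF (1.58), SRPRB (-1.16), ALG12 (-0.68), KDELR3 (-1.25), CREBRF (2.83) and ATF3 (2.54) in KO-labelled cells. In parental cells it was that of HERPUD2 (0.97), PDIA2 (0.82), CDNF (1.85), SRPRB (-0.97), KRTCAP2 (-0.74), KDELR3 (-1.35), CREBRF (3.06) and ATF3 (2.94).

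The branch downstream of PERK was described in the same way. Its 18 genes were called higher for 6 and lower for 11 in KO-labelled against parental cells in neratinib, and higher for 11 and lower for 5 in DMSO. Over all genes 34.7% were called higher and 36.9% lower in neratinib, and 36.0% higher and 35.6% lower in DMSO. The interaction was called below 0 for 15 and above 0 for 3, with a median of -0.41, where 24.6% of all genes were called below and 21.5% above 0. ATF4, the transcription factor whose translation PERK favours, averaged 322 ± 5.003 CPM in KO-labelled and 433 ± 3.03 CPM in parental neratinib libraries, and 746 ± 8.57 CPM in KO-labelled DMSO and 536 ± 1.56 CPM in parental DMSO libraries. Its interaction was -0.90 ± 0.0259 (log2, SE; adjusted p = 2.58e-29). DDIT3, which encodes CHOP, averaged 17.7 ± 1.05 CPM in KO-labelled and 29.4 ± 1.07 CPM in parental neratinib libraries, and 25.9 ± 0.440 CPM in KO-labelled DMSO and 24.1 ± 2.12 CPM in parental DMSO libraries, with an interaction of -0.84 ± 0.0698 (log2, SE; adjusted p = 1.23e-13). ATF3 rose in neratinib by 2.54 in KO-labelled and 2.94 in parental cells and was higher in KO-labelled cells by 1.32 in neratinib and 1.72 in DMSO (log2). PPP1R15A, the GADD34 subunit that reverses eIF2alpha phosphorylation, rose by 1.09 in KO-labelled and 1.26 in parental cells.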

How the data were processed

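RNA of 12 BT474 libraries was sequenced as single reads from an Illumina TruSeq RNA v2 preparation, per the labels' protocols. That kit enriches polyadenylated RNA without keeping strand. The authors deposited 1 table of raw counts, which were not normalized. Per the submitters' processing notes, the genome was GRCh38 and the tools included STAR 2.7.9, edgeR 3.40.2 and FastQC 0.11.7. How reads were counted, with which annotation and strand option, is not given in the sources used here, so reads of overlapping or near-identical genes cannot be separated, and the shares of such sequence were computed from GENCODE 29 on GRCh38. Of 28395 table rows, 581 had no symbol (0.088% to 0.124% of counts) and were left out, leaving 27814 genes.

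Counts were filtered with filterByExpr (16208 genes left), scaled by TMM and fitted with edgeR 4.0.16 (R 4.3.3), as group means over all 12 libraries with 8 residual degrees of freedom. The contrasts were KO-labelled against parental cells in each treatment, neratinib against DMSO within KO-labelled and within parental cells, and the interaction. A gene was called at a Benjamini-Hochberg adjusted p below 0.05 over all genes tested, and was counted again at 1.5-fold or more. The SE is the log2 fold change divided by the square root of F. Interactions were also tested beyond 1.2-fold with glmTreat. The steps were tested on simulated counts. Levels are TMM-scaled CPM, given as mean ± SD, and they are relative to the RNA sampled.

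The 34 genes and all other lists were chosen with earlier results of these data known. The rule for named genes took, in each comparison, the 6 called genes of largest change among the 34, always HSPA5, ERN1, XBP1, ATF6 and EIF2AK3, and from each of 8 further pathway lists the called gene of largest change with at least 1 CPM in either group, with ATF4, DDIT3, PPP1R15A and ATF3 always. The further lists covered ERAD, isomerases, chaperone partners, the translocon, the oligosaccharyltransferase, COPII, UPR factors and the PERK branch. Promoter windows were taken from RefSeq on GRCh38.p14 and matched by symbol.

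Alternatives were DESeq2 size factors, library totals, no filter, a mean of at least 5 CPM, DESeq2 1.42.0, a coefficient of variation of 0.1, a fit of only the groups compared, the replicate block, and each library left out. Within groups, Spearman correlations were 0.9983 to 0.9987 with chi-square values of 1.36 to 3.41 per degree of freedom, so all were kept as separate samples.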

Additional observations from a re-analysis of the deposited data

Results flagged for a closer look

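The neratinib response of 4 of the 33 tested genes differed between KO-labelled and parental cells by more than 1.2-fold (glmTreat with Benjamini-Hochberg adjustment over 16208 genes, called below 0.05). HERPUD1, an ERAD scaffold, had a difference of -1.07 (log2, KO-labelled minus parental; adjusted p = 6.23e-26), with responses of -0.13 in KO-labelled and 0.94 in parental cells. CRELD2, a secreted ER stress protein, had a difference of -0.582 (adjusted p = 1.81e-06), with -0.72 in KO-labelled and -0.14 in parental cells. CALR, encoding calreticulin, had a difference of -0.433 (adjusted p = 1.33e-06), with -0.32 in KO-labelled and 0.11 in parental cells. EIF2AK3, encoding PERK, had a difference of 0.543 (adjusted p = 1.06e-05), with 1.23 in KO-labelled and 0.69 in parental cells. With each library left out in turn, and under the other alternatives run, the difference lay between -1.09 and -1.04 for HERPUD1, between -0.62 and -0.54 for CRELD2, between -0.46 and -0.40 for CALR and between 0.52 and 0.59 for EIF2AK3.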

How the results depend on the processing

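Among changes called in the reported or the alternative fit, directions held for the 33 tested genes but PDIA3, whose neratinib response in parental cells was -0.0047 and became 0.074 with library totals and 0.055 with a mean of at least 5 CPM. The other results for single genes were counted once for each gene, comparison and alternative. Of these, 3134 kept their side of the threshold, 112 lost the call and 14 gained it, and the cause was not tested. The coefficient of variation of 0.1 gave 61 of the 112 losses. Setting the coefficient of variation to 0.1 for every gene, above the common value of 1.86%, changed most counts of calls. In KO-labelled against parental cells, genes called higher numbered 2 in neratinib (5 as reported) and 1 in DMSO (6), and calls among all genes tested numbered 6950 in neratinib (11605) and 6974 in DMSO (11609). For neratinib against DMSO, 11 were lower in KO-labelled cells (18), and 11 higher (17) and 7 lower (13) in parental cells. Among all genes tested 4516 were lower in KO-labelled cells (6221), and 5391 higher (6778) and 4874 lower (6299) in parental cells. For the interaction 1 was higher (3), 2 lower (14), 2 lower past 1.5-fold (1), and 1436 of all genes tested were called (7468).

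DESeq2 called 5 genes lower past 1.5-fold in KO-labelled against parental cells in DMSO (3). Library totals gave 7 genes higher past 1.5-fold in neratinib in parental cells (4), and 2 with an interaction below 0 past 1.5-fold (1), as did no filter on low counts (2). With each library left out in turn, interactions above 0 numbered 2 to 6 (3), with 6 without replicate 1 of KO-labelled DMSO cells. Those past 1.5-fold numbered 0 to 1 above 0 (0) and 1 to 2 below 0 (1). The 1 above 0 arose without replicate 3 of parental neratinib cells, and the 2 arose without replicate 2 of KO-labelled DMSO cells or without replicate 1 or 2 of KO-labelled neratinib cells.

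Libraries with the same replicate number did not deviate together (correlation of deviations -0.021 to 0.041 over 18 pairs, against -0.047 to 0.063 for other pairs), so the numbers do not pair them. With the replicate block, 24 genes in place of 25 were called lower in KO-labelled against parental cells in neratinib, the other counts for these genes were as reported, and among all genes tested 11512 (neratinib) and 11553 (DMSO) genes were called between genotypes, 12478 (KO-labelled) and 13031 (parental) between treatments, and 7349 for the interaction.

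Counts do not separate overlapping genes, and 3 libraries a group of unstated origin limit what the small spread means.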
